A study of Mus musculus with 37 samples.

Results

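The replication-dependent histone genes were taken as every row of the count table whose symbol begins with Hist1h, Hist2h, Hist3h or Hist4h. This gave 68 of 24421 gene symbols: 6 for the linker histone H1 and 18, 19, 12 and 13 for the core histones H2A, H2B, H3 and H4. Of the 68, 54 lie in the Hist1 cluster, 10 in Hist2, 3 in Hist3 and 1 in Hist4. The RNA came from the lungs of 37 C57BL/6 mice, exposed or sham exposed to radiation at NASA's accelerator site for such work, with 1 sequencing library from each mouse. The 6 groups were mock exposure (7 mice: 5 male, 2 female), mock exposure with nicotinamide riboside (NR), a vitamin B3 form given at 12 mM in the drinking water from before exposure onward (5 mice: 4 male, 1 female), and 0.75 Gy of 300 MeV/u silicon ions (7 mice: 3 male, 4 female). The others were 0.75 Gy of the same silicon ions with NR (6 mice: 4 male, 2 female), 0.75 Gy of a simulated galactic cosmic ray (GCR) field of 5 ions, made of protons of 2 energies with helium, oxygen, silicon and iron ions (7 mice: 3 male, 4 female), and 0.75 Gy of 137-Cs gamma rays (5 mice: 3 male, 2 female). The GCR and gamma mice had no NR, and all mice carried the same strain label. Neither age nor the time from exposure to collection is stated in the labels used. Replicate numbers only name a mouse.

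Replication-dependent histone genes supply the histones that package newly copied DNA, and their mRNAs rise in S phase and are destroyed when replication ends. In place of a poly(A) tail these mRNAs end in a short stem-loop bound by the protein Slbp, at a cut made with the U7 small nuclear ribonucleoprotein, whose own subunits include Lsm10 and Lsm11. A few members, such as Hist1h1c, Hist1h2bc and Hist2h2be, are also known to give polyadenylated mRNA in cells that do not divide. The libraries were made with SMART-seq v4, which starts cDNA synthesis from the poly(A) tail, a tail that stem-loop-ended mRNA lacks, and the values below are those of the histone RNA that entered such cDNA.

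The stem-loop is shown here for the members on which the results turn, because where it lies in the annotated transcript separates 2 kinds of 3′ end. A search of all annotated transcripts (GENCODE M21 on mm10) for a 6-base stem closing a 4-base loop of the histone kind found it in 44 of the 68 members, against 86 (0.394%) of the other protein-coding symbols. The 44 carried 6 forms. The commonest, in 26 members of the H1, H2A, H2B and H3 kinds, is the one of Hist1h1c. A second, in 7 members, all H4, is that of Hist1h4d and Hist1h4h. Hist1h4i shares its form with Hist2h4, and that of Hist2h2ac was held by no other member. Each is written 5′ to 3′ on the gene's strand with 5 bases on either side, and the capitals mark the 16 bases of stem and loop, whose mm10 position follows.
Hist1h1c: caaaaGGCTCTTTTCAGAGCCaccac
Hist1h1e: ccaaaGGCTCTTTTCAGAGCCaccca
Hist3h2a: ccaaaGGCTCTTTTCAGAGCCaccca
Hist2h2ac: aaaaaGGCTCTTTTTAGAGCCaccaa
Hist1h4d: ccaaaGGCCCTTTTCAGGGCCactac
Hist1h4h: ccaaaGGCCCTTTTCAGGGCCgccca
Hist1h4i: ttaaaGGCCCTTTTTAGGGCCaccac

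These stem-loops lie at chr13:23739512-23739527 (plus strand, Hist1h1c), chr13:23621782-23621797 (minus, Hist1h1e), chr11:58955172-58955187 (plus, Hist3h2a), chr3:96220418-96220433 (minus, Hist2h2ac), chr13:23581950-23581965 (plus, Hist1h4d), chr13:23531458-23531473 (plus, Hist1h4h) and chr13:22040966-22040981 (minus, Hist1h4i). All 7 genes are annotated with 1 exon, so the stem-loop is exonic in each. Hist1h4h and Hist2h2ac are annotated to end 46 and 57 bases after it. The annotated transcripts of Hist1h1c, Hist1h1e, Hist1h4d, Hist1h4i and Hist3h2a instead run on for 840, 1153, 770, 330 and 1643 bases past it. Across all members, 22 were annotated to end within 100 bases of the stem-loop, 22 ran on past 100 bases, and 24 held no stem-loop in the annotated transcript, 12 of the 68 models holding coding sequence only. The members nearest to that limit were Hist1h3c, with 74 bases after the stem-loop, and Hist1h2ae, with 151.

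Libraries held 9485197 to 66381526 counts (median 28476462), and levels are given as CPM, counts scaled to a library total of 1000000. Counting error alone allows up to 0.316 CPM for a gene with no count in the shallowest library and 0.0452 CPM in the deepest, taken as 3 counts. Markers of lung cells were present in every library, with summed levels of 2148 to 46090 CPM for 9 alveolar type 2 markers and 28820 to 344600 CPM for 6 club cell markers. Some libraries stood apart. In 13 the skeletal muscle actin Acta1 exceeded 1000 CPM (4 of 7 mock, 2 of 5 mock + NR, 5 of 7 silicon, 2 of 6 silicon + NR, and no GCR or gamma library), and they are called muscle-rich below. In 4 libraries (mock replicate 4 and GCR replicates 2, 5 and 6) the ribosomal precursor Rn45s exceeded 100000 CPM. In 3 (silicon replicates 3 and 6 and mock + NR replicate 4) the lymphoid chemokine Ccl19 exceeded 100 CPM, and in 2 (gamma replicates 3 and 4) the atrial hormone gene Nppa exceeded 10000 CPM. Gamma replicate 5, labelled female, had 3.73 CPM of Xist and 87.6 CPM of Ddx3y, whereas the other 14 libraries labelled female had at least 159.9 and at most 0.633 CPM. These limits were set after the data were seen. In whole-tissue RNA, fewer cells of a type and less RNA per cell cannot be told apart.

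Histone RNA in these lungs came from few members. Together the 68 genes had 267180 counts over the 37 libraries, and 8 genes held 94.2% of them: Hist1h2bc (137696), Hist1h1c (39529), Hist3h2a (20265), Hist1h4d (14865), Hist1h4h (14630), Hist1h1e (10400), Hist2h2be (8934) and Hist1h2be (5434). By histone, H2B genes took 57.9% of the counts, H1 19.6%, H4 12.6%, H2A 8.94% and H3 0.978%. The Hist1 cluster held 88.1%, Hist3 7.86% and Hist2 4.02%, while Hist4h4, the only Hist4 member, held 0.0633%.

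Compared per kb of exon, so that genes of different length can be set side by side, Hist1h2bc had the highest median level, 108.9 CPM per kb over the 37 libraries. Hist1h4h followed at 25.4, Hist1h1c at 17.9, Hist1h4d at 11.1, Hist3h2a at 8.74, Hist1h1e at 5.07, Hist2h2be at 3.12 and Hist1h4i at 1.79 CPM per kb. Hist1h2bc and Hist2h2be encode H2B, Hist1h4d, Hist1h4h and Hist1h4i encode H4, Hist3h2a encodes H2A, and Hist1h1c and Hist1h1e encode the somatic linker histones H1.2 and H1.4. The highest H3 member, Hist1h3e, reached 0.474 CPM per kb, and the other leading H3 genes, Hist1h3d and Hist1h3i, 0.408 and 0.414. Each of the other histones had at least 1 member above 5 CPM per kb.

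At the other end, 34 members had a median below 0.1 CPM and 8 had no count in any library: Hist1h2ao, Hist1h2ap, Hist1h2ba, Hist1h2bq, Hist1h2br, Hist2h2aa1, Hist2h3c1 and Hist2h3c2. Sequence shared with other genes limits what such zeros show. Of the 8, 6 share at least 90% of their 50-base stretches with another gene. Stretches were matched on either strand, and genes annotated over the same place were included. Reads from stretches that also occur elsewhere could not have been assigned to 1 gene if reads with several matches were dropped. How such reads were counted is not given. Over the whole family, 34 members share at least 50% of their 50-base stretches with another gene. Of those, 7 were at 0 everywhere and 8 passed the filter on low counts, against 1 and 20 of the other 34. Among members known from testis, Hist1h2ba was at 0 in all libraries, and Hist1h1t had 32 counts in all, spread over 17 libraries.

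Level differed between the kinds of annotated 3′ end. Members annotated to end within 100 bases of the stem-loop held 6.63% of the histone counts, those that run on past it 37.4%, and those with no annotated stem-loop 56.0%, nearly all of the last from Hist1h2bc and Hist2h2be. Hist1h4h was the exception among the short-ended genes, second highest of all members per kb. The median member that runs on stood at 0.441 CPM per kb, against 0.0756 for those that end near the stem-loop and 0.112 for those with none annotated. These shares describe annotation and levels in the same genes and carry no test, and the 5 highest genes set most of them. Most members that end near the stem-loop share at least 50% of their 50-base stretches with another gene, and few that run on do. The part of that sharing in the levels was not tested.

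**Figure D1:**
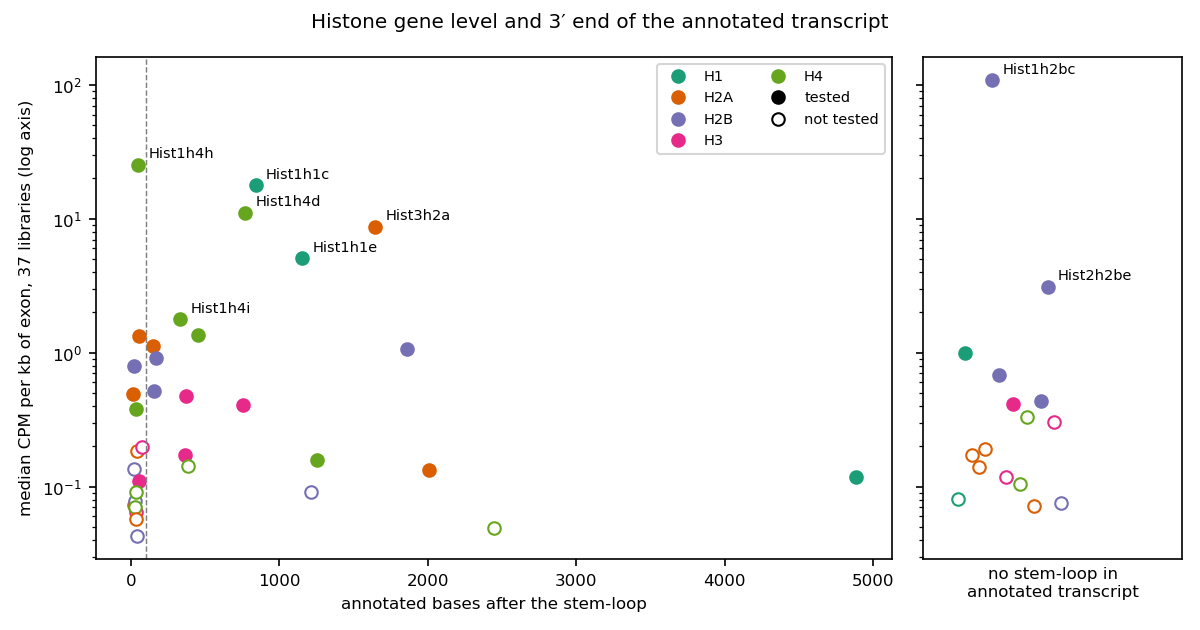
Median level of each histone gene over 37 libraries in CPM per kb of exon (log axis) against the number of annotated bases after the stem-loop, with genes whose transcript holds no stem-loop at the right. Colours give the histone, filled points were tested, the dashed line marks 100 bases, and the 17 members with a median of 0 are not drawn; Hist1h2bc lies highest at 108.9 CPM per kb and Hist1h4h is the only gene above 2 CPM per kb left of the line.

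Promoters of the family also differed by histone. RefSeq promoter windows (GRCm38.p6) were matched by symbol for 61 of the 68 members, and the 250 bases before each start were searched on both strands. The letters CCAAT, the box bound by the factor NF-Y, were found in 50 of 61 members, against 33.8% of all 32851 promoters: in all 6 H1, 17 H2A and 16 H2B genes, 8 of 10 H3 genes and 3 of 12 H4 genes. The octamer ATTTGCAT, bound by the factor Pou2f1, was in 14 of 61 (1.6% of all promoters), 7 H2A and 7 H2B genes and none of the H1, H3 or H4 kind. TATAAA was in 29 of 61 (12.4%). Windows of neighbouring H2A and H2B genes on opposite strands can overlap, as for Hist1h2ae and Hist1h2bg. The same letters can then be counted for both genes, so matches are not all separate sites. A match describes letters only, and none of the 3 motifs contains another.

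The summed level of all histone genes was 274.9 ± 28.0 CPM in mock lungs (SD, n = 7), 221.9 ± 46.1 with NR (n = 5), 263.8 ± 31.9 after silicon ions (n = 7), 256.9 ± 54.8 after silicon ions with NR (n = 6), 216.2 ± 47.3 after GCR (n = 7) and 240.0 ± 28.7 after gamma rays (n = 5). Because Hist1h2bc makes up more than any other gene, the sum of the other 67 was also taken. It was 92.1 ± 17.7 CPM in GCR, 123.2 ± 19.1 in mock and 141.9 ± 26.6 in silicon libraries. The H1 genes summed to 32.7 ± 8.47 CPM in GCR, 45.1 ± 17.1 in mock and 60.2 ± 18.9 in silicon libraries, with overlapping ranges. The 58 members with medians below 1 CPM summed to 18.3 ± 9.13 CPM in silicon libraries, 11.1 ± 2.40 in mock, 8.76 ± 3.08 in GCR and 8.07 ± 1.23 in gamma libraries. The highest of these sums, 36.6 CPM, was in silicon replicate 3, 1 of the 3 Ccl19-high libraries. Scaled by trimmed means in place of totals, the sums of all 68 were 269.7 CPM in mock and 237.8 in GCR libraries. These sums were not tested.

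Of the 68 members, 28 passed the filter on low counts and were tested among 16977 genes: 4 H1, 5 H2A, 8 H2B, 5 H3 and 6 H4. The lowest total among them was 150 counts (Hist1h3b) and the highest among the 40 not tested was 192 (Hist1h2bh). A gene was called at an adjusted p below 0.05 in edgeR's quasi-likelihood test with Benjamini-Hochberg adjustment over all tested genes, which is the source of every adjusted p below unless another tool is named. Each p measures the spread between these mice.

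After GCR, 1 of the 28 histone genes differed from mock: Hist3h2a, an H2A gene outside the main cluster, fell. It lies at chr11:58954685-58956830 (mm10) and overlaps Trim17 on its own strand and Gm44313 on the other, so reads from the overlaps cannot be assigned to it with certainty. Its level was 15.5 to 34.5 CPM in mock libraries (median 21.4) and 2.003 to 22.9 in GCR libraries (median 8.95). The GCR libraries fell into a low set of 4 (replicates 1, 2, 5 and 6, at 8.95, 4.76, 7.84 and 2.003 CPM), below every mock library, and 3 (replicates 3, 4 and 7, at 17.4, 22.9 and 19.5) inside the mock range. The log2 fold change was -0.89 ± 0.25 (SE, adjusted p = 0.0183, n = 7 and 7). Mock + NR libraries had 17, 15.8, 14.5, 18.7 and 18.8 CPM and gamma libraries 21.6, 18.9, 20.9, 22.7 and 13.2. No tested histone gene had GCR and mock ranges without overlap, against 0.654% of all genes tested. The 1 call stands beside 16.6% of all genes called in this comparison, 8.03% higher and 8.52% lower, so the share of histone genes called was below that of genes at large. At an unadjusted p below 0.05 there were 5 of 28 histone genes and 34.4% of all genes.

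**Figure D2:**
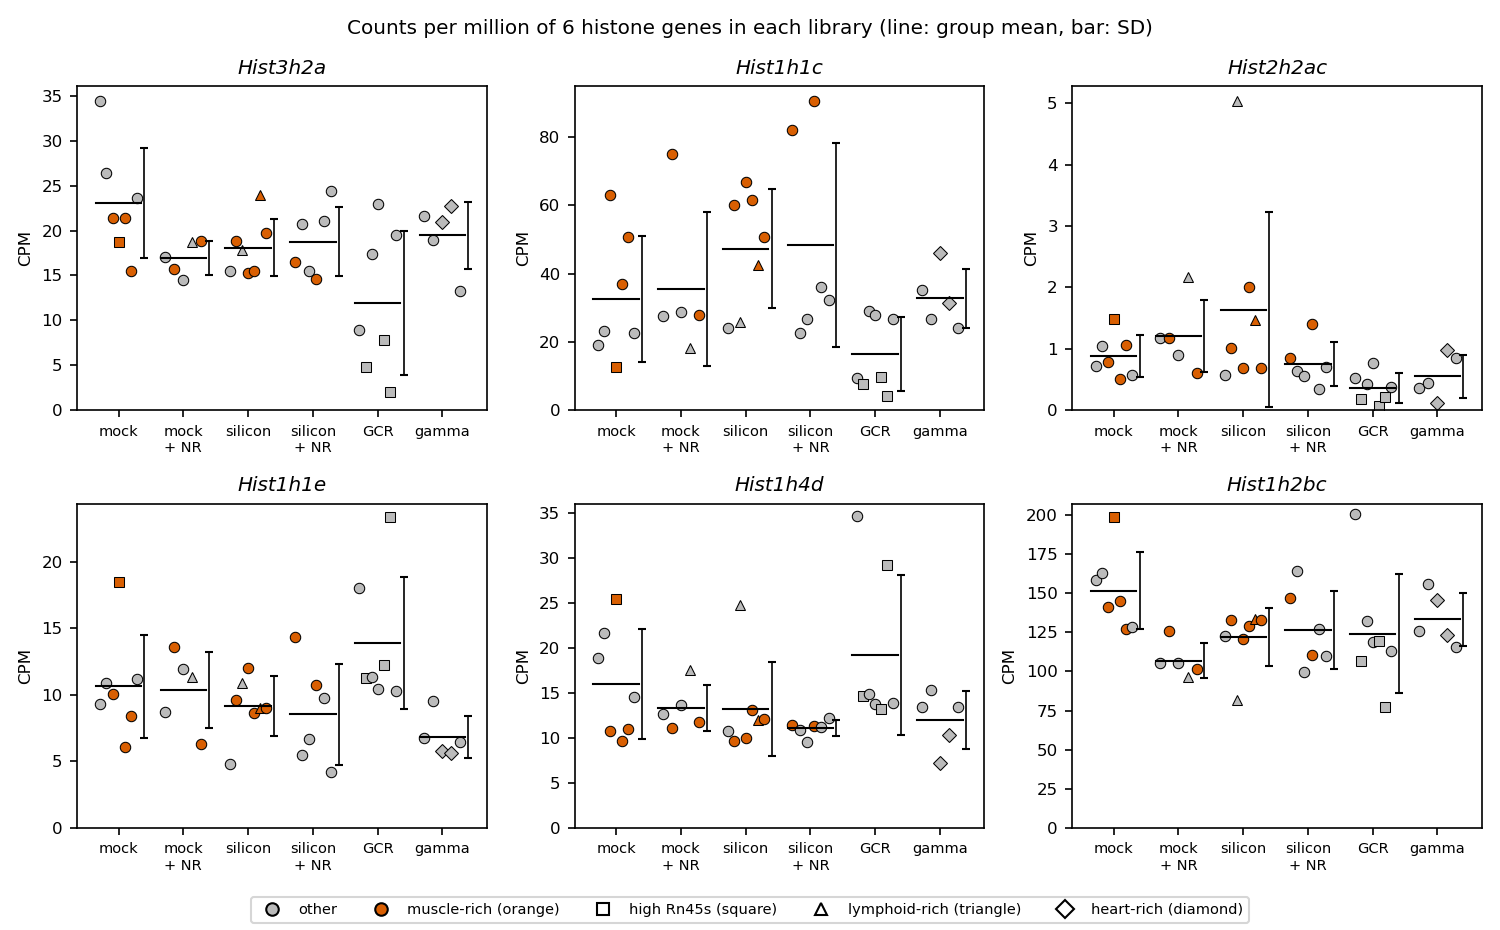
CPM of 6 histone genes in each of 37 libraries by group, with the group mean as a line and the SD as a bar beside it. Orange points are muscle-rich libraries, squares exceed 100000 CPM of Rn45s, triangles are Ccl19-high and diamonds Nppa-high; the lowest Hist3h2a values, 2.003 to 7.84 CPM, are the 3 GCR squares, and the highest Hist1h1c values are orange.

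The other histone genes with the smallest p in this comparison did not pass. Lower in GCR were Hist1h2bg (log2 fold change -1.69 ± 0.65, adjusted p = 0.0676), with no count in GCR replicates 1, 2 and 5, and Hist1h1c (-0.92 ± 0.41, 0.11). Hist1h4i (-1.05 ± 0.48, 0.113) and Hist2h2ac (-1.07 ± 0.50, 0.121) were lower too, with smaller p than any of the higher genes. Higher were Hist1h1e (0.63 ± 0.31, 0.146), Hist1h4d (0.55 ± 0.27, 0.149) and Hist1h1d (0.60 ± 0.43, 0.323), the last encoding H1.3. In all, 9 of the 28 were higher and 19 lower, with a median of -0.20 against -0.06 over all genes tested. Without the muscle-rich libraries this direction turned, with 18 of 31 higher and a median of 0.09. All 5 H3 genes were lower and none was called, and 3 of 4 H1 genes were higher. By 3′ end the medians were -0.10 for 6 genes that end near the stem-loop, -0.52 for 16 that run on past it and -0.09 for 6 with none annotated. The 2 highest genes without an annotated stem-loop, Hist1h2bc (-0.04 ± 0.18, adjusted p = 0.890) and Hist2h2be (0.01 ± 0.16, 0.964), were near 0 on this scale.

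The call of Hist3h2a was lost in some smaller sets of libraries. Without the 4 high-Rn45s libraries it was -0.46 (adjusted p = 0.26), without the 13 muscle-rich libraries -1.10 (0.162), and none of all genes tested was called in either set. Without GCR replicate 2 it was -0.76 (0.0677). Without mock replicate 4, Hist1h1e and Hist1h4d were called beside it, without GCR replicate 1 Hist1h2bn, and without GCR replicate 4 Hist1h2bg. Hist3h2a was 2.003 to 18.8 CPM in the 4 high-Rn45s libraries and 8.95 to 34.5 in the other 33.

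Against silicon ions, the comparison that asks how the mixed field differed from a single ion at the same dose, 6 of 28 histone genes were called, where 35.3% of all genes were, 14.1% higher and 21.2% lower. At an unadjusted p below 0.05 there were 10 of 28 and 46.2%. Of these, 4 fell in GCR: Hist2h2ac, which encodes H2A, Hist1h4i (H4), Hist1h1c (H1.2) and Hist1h2bg (H2B). The other 2, Hist1h1e (H1.4) and Hist1h4d (H4), rose. The H1 genes thus moved apart, 1 falling and 1 rising, and so did the H4 genes. With 25 of the 28 lower in GCR, the median was -0.74 against -0.08 over all genes (-0.47 without the muscle-rich libraries and -0.92 without the high-Rn45s ones), and no histone gene had ranges without overlap, against 2.46% of all genes.

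Hist1h1c was 23.9 to 67.0 CPM in silicon libraries (median 50.7) and 4.01 to 28.9 in GCR libraries (median 9.65). The 5 muscle-rich silicon libraries, at 42.4 to 67.0 CPM, were all above the highest GCR library, and the other 2, at 23.9 and 25.7, were inside the GCR range. The log2 fold change was -1.52 ± 0.41 (adjusted p = 0.00725). Gamma libraries, at 35.1, 26.8, 46.1, 31.3 and 24.2 CPM, had no muscle-rich member and overlapped the silicon range. Without the muscle-rich libraries the difference was -0.47 (adjusted p = 0.497), and without the high-Rn45s libraries -1.11 (0.113).

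Hist2h2ac was 0.566 to 5.04 CPM in silicon libraries (median 1.01) and 0.0603 to 0.768 in GCR libraries (median 0.366). The highest value by far was in silicon replicate 3. Its log2 fold change was -1.95 ± 0.49 (adjusted p = 0.00528), and without the 3 Ccl19-high libraries it was -1.36 (0.0381). This was the only histone gene still called without the muscle-rich libraries (-2.69, adjusted p = 0.0262), where 1263 of all genes were called. Of the silicon group, only replicates 1 and 3 remained in that set, and the part of replicate 3 in the call was not tested. Without the high-Rn45s libraries, where none of all genes tested was called, Hist2h2ac was at -1.56 (0.0893). Its exon overlaps Gm44492 and 55% of its 50-base stretches occur in other genes, so its counts are uncertain.

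Hist1h4i was 0.956 to 5.07 CPM in silicon (median 2.72) and 0.151 to 1.27 in GCR libraries (median 0.803), with only silicon replicate 1 inside the GCR range. The log2 fold change was -1.80 ± 0.47 (adjusted p = 0.00613). Hist1h2bg was 0.0631 to 1.02 CPM (median 0.601) against 0 to 0.347 (median 0.0666), a log2 fold change of -2.24 ± 0.63 (0.00864). That gene was at 0 in 3 GCR libraries, so the size of its fold depends on the fit's prior and the depth. Without the muscle-rich libraries Hist1h4i was at -1.48 (adjusted p = 0.15) and Hist1h2bg at -2.45 (0.103).

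Hist1h1e was 4.78 to 12.0 CPM in silicon (median 9.02) and 10.3 to 23.4 in GCR libraries (median 11.3). Silicon replicates 3 and 4, at 10.9 and 12.0, reached into the GCR range. The log2 fold change was 0.80 ± 0.31 (adjusted p = 0.0415), and the call was lost when any 1 of 10 of the 14 libraries was left out, and without the 3 Ccl19-high libraries (0.76, adjusted p = 0.107). It was at 0.48 (0.289) without the high-Rn45s and 1.19 (0.0952) without the muscle-rich libraries. Hist1h4d was 9.60 to 24.7 CPM (median 12.0) against 13.2 to 34.6 (median 14.7), with silicon replicate 3 alone inside the GCR range. Its log2 fold change was 0.78 ± 0.27 (0.0258), and 0.65 (0.123) and 0.58 (0.415) without those same sets. The call of Hist1h4d was lost without silicon replicate 2 (0.70, adjusted p = 0.053), GCR replicate 1 (0.56, 0.0925) or GCR replicate 6 (0.60, 0.0836). It was also lost with only the groups compared in the fit (0.78, 0.0759). Scaled by library totals alone, which moved the median of all genes to -0.22, both rises were not called (Hist1h1e 0.59, adjusted p = 0.0737; Hist1h4d 0.54, 0.0853), and the histone calls became 0 higher and 5 lower in place of 2 and 4. Hist1h1e overlaps Hist1h2be and Gm11398, both annotated on the same strand, so reads from the overlap cannot be assigned to 1 of these genes with certainty.

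**Figure D3:**
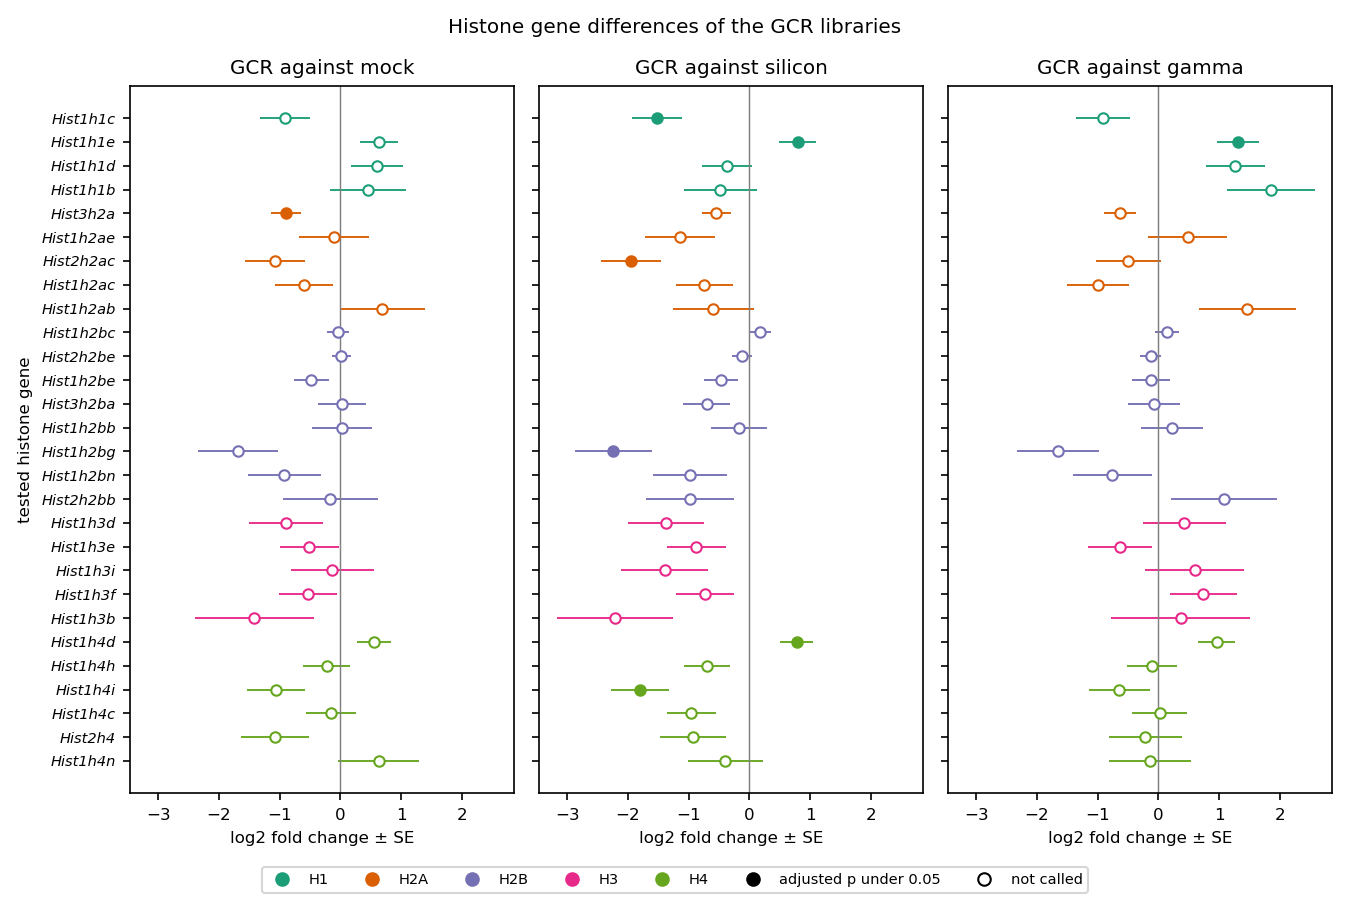
Log2 fold change with its SE of the 28 tested histone genes in GCR against mock, silicon and gamma libraries, which share the GCR libraries. Colours give the histone and filled points had an adjusted p below 0.05; 1 gene is filled in the first panel, 6 in the second and 1 in the third.

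Against gamma rays, the comparison of a mixed particle field with sparsely ionizing radiation at the same dose, 1 of 28 histone genes was called and 5.7% of all genes were, 2.66% higher and 3.04% lower. It was Hist1h1e, which rose. At an unadjusted p below 0.05 there were 7 of 28 and 25.7%. Gamma libraries had 6.74, 9.53, 5.76, 5.60 and 6.47 CPM, and all 7 GCR libraries, at 10.3 to 23.4, lay above them. That absence of overlap was seen in 0.171% of all genes tested. The log2 fold change was 1.31 ± 0.35 (adjusted p = 0.0352, n = 7 and 5). Among genes that did not pass, Hist1h4d (0.96 ± 0.30, adjusted p = 0.0515) and Hist1h1d (1.27 ± 0.48, 0.0915) were higher in GCR, and Hist1h2bg (-1.65 ± 0.68, 0.118), Hist3h2a (-0.63 ± 0.26, 0.118) and Hist1h1c (-0.91 ± 0.44, 0.187) lower. Of the 28, 14 were higher and 14 lower, with a median of -0.03, equal to that of all genes. Without the 2 Nppa-high libraries 24 of 32 were higher, with a median of 0.34. No histone gene was called when GCR replicate 1, 2, 5 or 6 or gamma replicate 1, 3 or 4 was left out, where Hist1h1e thus lost its call. Without gamma replicate 5, or without GCR replicate 3 or 7, Hist1h1e and Hist1h4d were called, and without GCR replicate 4 also Hist1h2bg and Hist3h2a. Without the 2 Nppa-high libraries Hist1h1e was at 1.19 (adjusted p = 0.458), without the muscle-rich ones at 1.26 (0.0731) and without the high-Rn45s ones at 0.99 (0.52).

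The GCR libraries that the 3 comparisons share differed from the rest in other ways. The 15 skeletal muscle markers, none at 0 in any group, summed to 60.8 to 463.9 CPM in GCR, 58.9 to 3722 in gamma, 62.5 to 55890 in mock and 729 to 102400 in silicon libraries, and 14 of 15 fell against mock and 15 of 15 against silicon. T cell markers summed to 23.98 to 76.6 CPM in GCR and 23.5 to 1013 in silicon libraries, and 8 of 9 fell. RNAs that lack a poly(A) tail other than histone mRNA rose in GCR, 6 of 9 tested against mock and 6 of 9 against silicon. Rpph1, the RNA of ribonuclease P, was 1.70 to 62.2 CPM in GCR and 0.476 to 5.87 in mock libraries (log2 fold change 4.23 ± 0.77, adjusted p = 0.00403). The part of these differences in the histone values was tested only by leaving libraries out, as given above.

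Silicon ions alone gave no called histone gene, and none of the 16977 genes was called by edgeR (0%). The tested histone genes were nonetheless mostly higher than in mock, 22 of 28 with a median log2 fold change of 0.51, against 0.07 over all genes. The median was 0.20 without the 3 Ccl19-high libraries (22 of 30 higher, all genes 0.02) and 0.21 with only these groups in the fit (16 of 24, all genes 0.03). With an unadjusted p below 0.05 there was 1, Hist1h1d (0.97 ± 0.42, adjusted p = 0.299), against 12.9% of all genes. DESeq2 called no histone gene and 425 of all genes. Without the muscle-rich libraries, which kept only silicon replicates 1 and 3 of that group, edgeR called 725 of all genes, 85 higher and 640 lower. No histone gene was among them, and 21 of 31 were higher, with a median of 0.43. Hist1h1d was 0.549 to 1.46 CPM in mock libraries (median 0.880) and 0.708 to 2.57 in silicon libraries (median 2.03), with overlapping ranges. Hist1h2ab (1.28 ± 0.65, adjusted p = 0.411) and Hist1h4c (0.80 ± 0.41, 0.412) came next. No histone gene had ranges without overlap, against 0.106% of all genes. Of the 8 genes of highest total count, 5 were lower without passing: Hist3h2a was at -0.34, Hist1h4d at -0.23, Hist1h2bc at -0.21, Hist1h1e at -0.17 and Hist1h2be at -0.01. Mitosis genes, 22 of 22, and S phase genes, 32 of 35, were also higher, with medians of 1.01 and 0.45 and none called, and T cell markers had a median of 2.22.

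Gamma rays gave no called histone gene, and 0.0295% of all genes were called. Here 23 of 28 were lower than in mock, with a median of -0.39 against -0.01 over all genes. The smallest p was that of Hist1h3f, an H3 gene (-1.28 ± 0.54, adjusted p = 0.402), the only member with an unadjusted p below 0.05, as were 10% of all genes. Mock libraries had 0.227 to 0.439 CPM of Hist1h3f (median 0.336) and gamma libraries 0.216, 0.121, 0.210, 0.125 and 0.0385, so that the ranges did not overlap, as for 0.848% of all genes. Values this low rest on few counts. Hist1h1b was at -1.39 ± 0.69 (adjusted p = 0.504) and Hist1h1e at -0.68 ± 0.34 (0.507). DESeq2 called no histone gene and 259 of all genes. The gamma and GCR values against mock share the mock libraries.

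NR gave no called histone gene in unirradiated mice, in silicon-irradiated mice or in the interaction of the 2, and edgeR called none of the 16977 genes tested in any of these (0%). Without the muscle-rich libraries edgeR called 425, 179 and 1335 of all genes in these 3 comparisons, and no histone gene. Hist1h2bc was the member with the smallest p in mock + NR against mock (-0.44 ± 0.20, adjusted p = 0.248), the only 1 of 28 with an unadjusted p below 0.05, where 16.9% of all genes had one. Its levels were 105.5, 125.8, 105.6, 96.1 and 101.6 CPM with NR and 127.4 to 198.6 (median 145.0) without, and the ranges did not overlap, as for 0.825% of all genes. In silicon + NR against silicon, 24 of 28 were lower, with a median of -0.33 against -0.05 over all genes. Unadjusted p-values below 0.05 were found for 5 members and 12.8% of all genes: Hist1h3f (-1.46 ± 0.52, adjusted p = 0.208), Hist3h2ba (-1.0 ± 0.41, 0.293), Hist2h2ac (-1.10 ± 0.50, 0.348), Hist1h2ae (-1.29 ± 0.61, 0.374) and Hist1h3i (-1.56 ± 0.75, 0.380). Muscle-rich libraries made up 5 of 7 of the silicon and 2 of 6 of the silicon + NR group. The median was -0.98 without them, where only silicon replicates 1 and 3 remained of the silicon group, replicate 3 being Ccl19-high. It was -0.53 without the high-Rn45s libraries, -0.56 without the Nppa-high ones and -0.23 without the Ccl19-high ones. No member had ranges without overlap there, against 0.112% of all genes. In silicon + NR against mock + NR the median was 0.19, and no member had an unadjusted p below 0.05 (2.16% of all genes) or ranges without overlap (0.0589%). Without the muscle-rich libraries that direction turned, with 14 of 31 higher, a median of -0.13 and 4 members at an unadjusted p below 0.05. For the difference between the 2 silicon effects, Hist2h2ac had the smallest p (-1.54 ± 0.71, adjusted p = 0.436), the only unadjusted p below 0.05 among 28, against 9.95% of all genes. DESeq2 called no histone gene in these 4 comparisons, and of all genes 591 in mock + NR against mock, 353 in silicon + NR against silicon, 1 in silicon + NR against mock + NR and 327 in the interaction.

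No histone gene was called between the sexes or in its GCR difference by sex. Across all groups Hist1h2bc had the smallest p in females against males (-0.29 ± 0.12, adjusted p = 1), the only member with an unadjusted p below 0.05, where 0.0589% of all genes were called and 3.15% had such a p. In the interaction of GCR and sex, where no gene was called (0%), Hist2h4 and Hist1h4n had unadjusted p-values below 0.05, as did 2.07% of all genes. DESeq2 called no histone gene in either, and 12 and 9 of all genes. Gamma replicate 5 was counted as female, as labelled, in the sex term of every fit and in these values; without it Hist1h2bc was at -0.30 (edgeR adjusted p = 0.934) between the sexes.

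The genes that make and handle histone mRNA moved in both directions. Against mock, 1 of 24 tested genes of histone transcription and 3′ end processing rose and 4 fell, where 16.6% of all genes were called. Sympk and Cstf2, scaffold and RNA-binding parts of the cutting machinery, were at -0.89 ± 0.26 (adjusted p = 0.0246) and -0.71 ± 0.21 (0.0239), and Pou2f1, the octamer-binding factor, at 0.65 ± 0.19 (0.0258). Slbp itself did not pass (-0.53 ± 0.30, adjusted p = 0.209), and neither did Npat, the factor that turns on histone gene transcription (0.50 ± 0.20, 0.0769), Lsm10 (-0.14, 0.36), Lsm11 (0.37, 0.118) or Zfp473, the zinc finger protein of the U7 complex (0.89, 0.139). Against silicon, where 35.3% of all genes were called, 2 of 24 rose and 8 fell. Slbp fell (-0.88 ± 0.30, adjusted p = 0.0219), from 25.2 to 83.8 CPM in silicon libraries (median 40.9) to 5.17 to 50.7 in GCR (median 13.3), with overlap. Npat (0.72 ± 0.20, 0.00768) and Casp8ap2, a partner of Npat at histone genes (0.64 ± 0.19, 0.0113), rose. Against gamma, 1 rose, Zfp473 (1.67 ± 0.50, 0.0461), and 1 fell, Upf1, a helicase of histone mRNA decay (-0.78 ± 0.22, 0.0371).

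Histone variants, which are made outside S phase as well, were also measured. Against mock, H1fx, an H1 variant (1.62 ± 0.29, adjusted p = 0.00362), H2afj (0.60 ± 0.20, 0.0399) and H2afy, macroH2A (0.35 ± 0.12, 0.0370), rose and H3f3a, an H3.3 gene, fell (-0.63 ± 0.21, 0.0373), 4 of 11 tested. H3f3b, the other H3.3 gene (0.12, 0.713), H2afz (0.25, 0.436), H2afx (0.16, 0.525) and H1f0 (-0.05, 0.893) did not pass. Of 22 chaperone and deposition genes 2 rose and 1 fell. Among them were Hjurp, the CENP-A chaperone (1.12 ± 0.33, 0.0251), and Rbbp7, a histone-binding protein (-0.65 ± 0.20, 0.0300). Against silicon, variants split 3 and 3 and chaperones 4 higher and 7 lower among those called. Against gamma, H2afy (0.50 ± 0.13, 0.0327) and the chaperone Nap1l1 (0.58 ± 0.17, 0.0461) were the calls of these lists, both higher.

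Genes of S phase and mitosis, which mark dividing cells, were measured beside the histone genes. Against mock, 1 of 35 S phase genes was called, the clamp loader subunit Rfc4 (-1.18 ± 0.40, adjusted p = 0.0407), and none of 22 mitosis genes, and the proliferation gene Mki67 was at -0.02 (0.981), where 16.6% of all genes were called. At an unadjusted p below 0.05 there were 5 S phase and 1 mitosis gene. Against silicon, 18 of 35 S phase genes fell, with Tk1 at -1.47 ± 0.33 (adjusted p = 0.00300), Rfc4 at -1.70 ± 0.39 (0.00336), Mcm2 at -0.94 ± 0.27 (0.00890) and Rrm2 at -1.19 ± 0.39 (0.0196), and 17 of 22 mitosis genes fell, with Cdc20 at -2.24 ± 0.56 (0.00472), where 21.2% of all genes fell. The medians were -0.63 for S phase, -1.25 for mitosis and -0.74 for the histone genes. S phase genes summed to 1091 and 773.8 CPM in the Ccl19-high silicon replicates 3 and 6. The other silicon libraries had 335.2 to 481.5 CPM and GCR libraries 207.0 to 573.8. Mitosis genes summed to 488.4 and 373.5 CPM in those 2 replicates, 87.59 to 326.8 in other silicon libraries and 71.24 to 208.8 in GCR. The part of the Ccl19-high libraries in these falls was not tested. Against gamma no S phase gene was called (5 of 35 at an unadjusted p below 0.05) and 1 mitosis gene rose, Kif23 (1.19 ± 0.35, 0.0421), where 5.7% of all genes were called.

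The 15 histone genes of highest mean level, 3 for each histone, were set against Mki67 over the 37 mice, and no other members were. Levels were put on edgeR's log2 CPM scale, with library totals scaled by trimmed means. There Hist1h1d had a Pearson r of 0.86 and a Spearman rho of 0.82 with Mki67. The permutation p was 1e-05 for both, the smallest that 100000 resamples can give (adjusted p = 6.43e-05 and 0.00015 over 45 relations). Values were shuffled over all 37 mice without regard to group, so differences between groups enter these p-values. Leaving out the 2 libraries farthest from the median of Mki67 gave r = 0.83, and r was 0.91 within the 13 muscle-rich libraries, 0.77 within the other 24 and 0.85 within the 33 that were not high in Rn45s. Hist1h2ae followed (r = 0.77, rho = 0.77, permutation p = 1e-05 for both), with r = 0.76 without the 2 libraries, 0.74 within muscle-rich and 0.68 within other libraries. Hist1h3i came next (r = 0.71, rho = 0.69, permutation p = 2e-05 and 1e-05), with 0.69 without the 2 libraries, 0.72 within muscle-rich and 0.50 within other libraries. Hist1h1d, Hist1h2ae and Hist1h3i are genes of low level, with medians of 0.878, 0.792 and 0.170 CPM. Another 5 (Hist1h1e, Hist2h2ac, Hist1h3d, Hist1h4h and Hist1h4i) had r of 0.47 to 0.49 and rho of 0.42 to 0.53, with adjusted permutation p of 0.00474 to 0.00784 for r. Within the libraries that were not muscle-rich, r was 0.49 for Hist1h1e, 0.30 for Hist2h2ac, -0.14 for Hist1h3d and Hist1h4h and -0.03 for Hist1h4i, so the last 3 relations did not hold there. The highest gene, Hist1h2bc, had r = 0.00 (rho = 0.02, permutation p = 0.998 and 0.921), Hist2h2be -0.25 (rho = -0.17, 0.138 and 0.311) and Hist3h2a -0.28 (rho = -0.35, 0.0911 and 0.0331). Hist1h1c had 0.24 over all mice (rho = 0.18, permutation p = 0.152 and 0.286) but 0.51 within muscle-rich and -0.65 within other libraries, so the relation was not of 1 sign.

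Acta1 levels fell into 2 separate sets, so only values within each are given. Within the 13 muscle-rich libraries Hist1h1c had r = 0.91 and rho = 0.94 with Acta1, Hist1h4h 0.87 and 0.88, Hist1h2be 0.86 and 0.75, Hist1h3d 0.86 and 0.83, Hist1h3i 0.86 and 0.77, Hist1h4i 0.84 and 0.81 and Hist2h2be 0.80 and 0.85. Within the other 24 the same genes had r between -0.24 (Hist1h1c) and 0.22 (Hist1h3i). Over muscle-rich libraries Hist1h1c was 12.7 to 90.7 CPM (median 60.2), against 4.01 to 46.1 (median 26.2) in the rest, and the sum of H1 genes had medians of 72.9 and 36.8 CPM. Hist3h2a had medians of 18.8 and 18.8 CPM in the 2 sets, and Hist1h2bc 132.6 and 121.2.

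With Rpph1, an RNA that lacks a poly(A) tail, Hist3h2a had r = -0.78 and rho = -0.54 over the 37 mice (permutation p = 1e-05 and 0.00069, adjusted p = 6.43e-05 and 0.00259). It was -0.64 without the 2 farthest libraries, 0.06 within muscle-rich libraries, -0.86 within the others and -0.60 within the 33 not high in Rn45s, so the relation did not hold in the muscle-rich set. Hist1h4d (r = 0.65, rho = 0.55, permutation p = 7e-05 and 0.0006) and Hist1h1e (r = 0.61, rho = 0.51, permutation p = 0.00011 and 0.00145) went the other way, with r = 0.70 and 0.77 within muscle-rich libraries, 0.61 and 0.67 within the others, 0.54 and 0.40 within those not high in Rn45s, and 0.54 and 0.48 without the 2 farthest libraries. Hist1h1c had r = -0.54 and rho = -0.31 (permutation p = 0.00068 and 0.0606), and r = -0.31 without the 2 farthest libraries. Its r was 0.09 within muscle-rich libraries, -0.69 within the others and -0.12 within those not high in Rn45s. The points share the GCR libraries, which hold the highest Rpph1 levels. The part of poly(A)-lacking RNA in the calls of Hist3h2a, Hist1h4d and Hist1h1e was not tested beyond leaving out the high-Rn45s libraries.

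**Figure D4:**
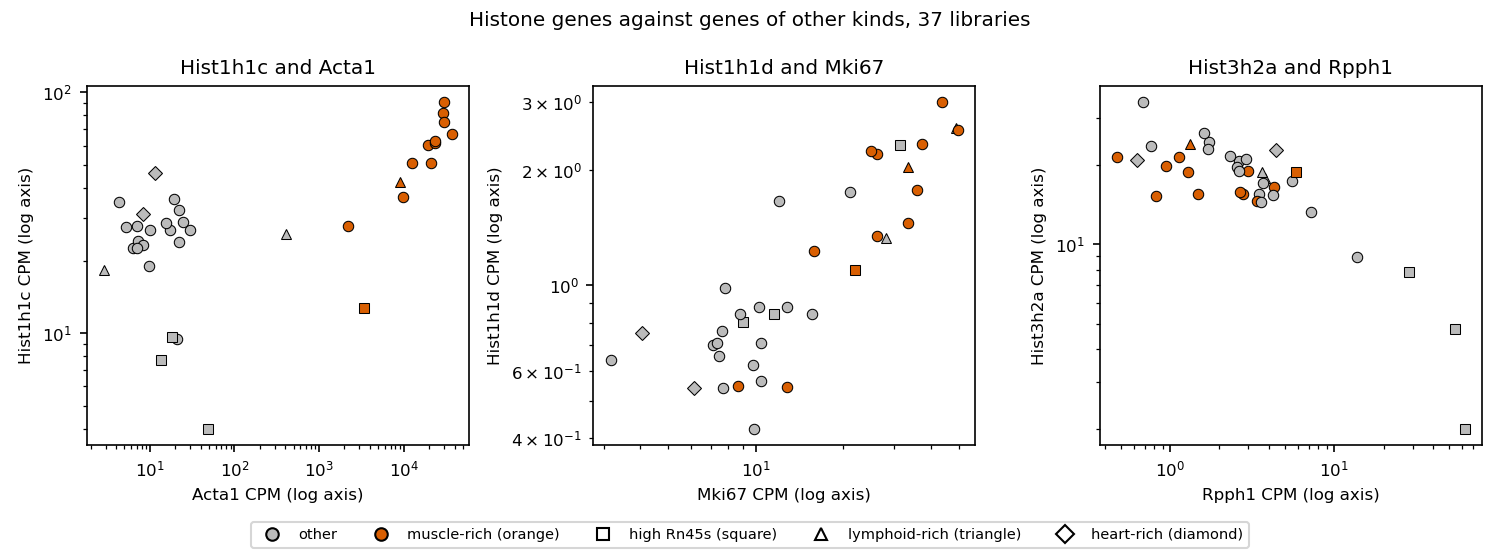
CPM of 3 histone genes against 3 other genes in each of 37 libraries, all axes logarithmic, with marks for library kinds as in the plot of 6 genes by group. Hist1h1c climbs with Acta1 among the orange muscle-rich libraries (r = 0.91, n = 13), Hist1h1d with Mki67 over all libraries (r = 0.86), and Hist3h2a lies lowest at the highest Rpph1 levels (r = -0.78).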

How the data were processed

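Lung RNA of 37 mice was extracted with Trizol and made into libraries with SMART-seq v4 and Nextera XT, per the labels' protocols. The deposited table holds raw counts per gene symbol, made by the authors. The submitters' processing notes name FastQC 0.11.4, MultiQC 1.12, Trimmomatic 0.36, STAR 2.5.2, HTSeq 0.13.5 and the build mm10, without roles; annotation, strand setting and the handling of reads with several matches were not found in the labels. Reads lost to shared sequence or added from an overlapping gene would change single members.

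CPM was computed here on each library's total count (9485197 to 66381526); floors cover counting error only. Tests used edgeR 4.0.16 (TMM factors, filterByExpr, quasi-likelihood F test, group and sex as terms, all 37 libraries in 1 fit) in R 4.3.3, with Benjamini-Hochberg adjustment over 16977 genes. Log2 fold changes are edgeR's, and their SE was taken from the test statistic. DESeq2 1.42.0 was an alternative; pandas 2.3.3, numpy 2.4.6, scipy 1.17.1 and matplotlib 3.10.9 were used for the rest. Correlations used edgeR's log2 CPM with TMM factors and 100000 permutations over all mice regardless of group, and members were ranked by mean log2(CPM + 0.1). Gene models were GENCODE M21, and promoters RefSeq. On simulated counts for the GCR and mock libraries over 16765 genes, 28.7% of genes changed 2-fold and 98.9% of those changed 4-fold were called. The simulation gave every gene the same spread between libraries and built in no library kinds, so these shares do not apply to single histone genes.

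Genes named are the 3 of highest mean log2 CPM per histone, the 3 of smallest p in each direction per comparison, the highest Hist3 and Hist4 members, Hist1h1t and Hist1h2ba, and, of each other list with a call, the 2 of smallest p with a few listed genes. The members, lists and tests were chosen with earlier results of these data known. Alternatives covered the scaling, filter, tool, sex term, samples in the fit, each library left out, and 4 kinds of libraries left out. Library kinds were set from marker levels after the data were seen.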

Additional observations from a re-analysis of the deposited data

Results flagged for a closer look

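In 12 of 90 tests of a histone gene within a group, the highest or lowest library stood apart by Dixon's 95% criterion, which chance meets in about 1 of 20 groups. Mock + NR replicate 2, a muscle-rich library, gave 4 of them: Hist1h1c at 75.21 CPM (18.27 to 28.71 in the others of its group), Hist1h4h at 24.44 (6.562 to 11.68), Hist1h4i at 3.244 (0.4885 to 1.179) and Hist1h3d at 1.761 (0.2638 to 0.4419). Silicon replicate 3, a Ccl19-high library, gave 3: Hist2h2ac at 5.035 CPM (0.5663 to 2.005), Hist1h4d at 24.72 (9.597 to 13.11), and Hist1h2bc low at 81.76 (120.7 to 133.6). Mock replicate 4, high in Rn45s and muscle-rich, had Hist1h1e at 18.48 CPM (6.108 to 11.21) and Hist2h2be low at 5.21 (7.804 to 9.436). Mock replicate 6 had Hist1h2ae at 1.902 CPM (0.5961 to 0.8775) and Hist1h3i at 0.5035 (0.1645 to 0.2913). GCR replicate 1 had Hist1h3d at 1.091 CPM (0.1054 to 0.4993).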

How the results depend on the processing

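The counts of histone genes called depended on a few libraries and on the tool. In GCR against mock (1 called), DESeq2 called 2, and 0 were called with only the groups compared in the fit (17 histone genes then passed the filter), without the muscle-rich libraries, or without the high-Rn45s libraries, where 5, 3 and 3 had an unadjusted p below 0.05; of all genes, 909, 0 and 0 were called in these 3 sets. In GCR against silicon (6 called), the same 3 sets gave 3, 1 (Hist2h2ac) and 0, with 9 at an unadjusted p below 0.05 in the last, where 4177, 1263 and 0 of all genes were called. Without the muscle-rich libraries, only replicates 1 and 3 of the silicon group remained. In GCR against gamma (1 called), DESeq2 called 3 and library totals alone 0, and the same 3 sets and the set without the Nppa-high libraries gave 0 each, with 8, 5, 7, 3 and 6 at an unadjusted p below 0.05, where 79, 0, 0, 0 and 4 of all genes were called. The exclusions by library kind were chosen after seeing the data. RLE factors, a robust prior, no sex term and no filter on low counts gave 1, 6 to 8 and 1 calls. Library totals alone moved the median of all genes to between -0.24 and -0.21.

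Leaving out 1 library at a time gave 0 to 3 calls in GCR against mock: 0 without GCR replicate 2, 2 without GCR replicate 1 or 4, and 3 without mock replicate 4. In GCR against silicon it gave 4 to 8, with 4 without silicon replicate 2 or GCR replicate 6 and 8 without GCR replicate 1 or 4. In GCR against gamma it gave 0 to 4: 0 without GCR replicate 1, 2, 5 or 6 or gamma replicate 1, 3 or 4, 2 without GCR replicate 3 or 7 or gamma replicate 5, and 4 without GCR replicate 4. The other 8 comparisons gave 0 in every such fit. Of 32 pairs of a named gene and a comparison followed through these settings, none changed sign; other named values were not followed. No paired analysis was possible because replicate numbers follow accession order and the labels give none. Members below about 0.3 CPM rest on few counts in shallow libraries, and most of the family was not tested.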
